A study of Homo sapiens with 10 samples.

Results

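The mitotic genes described here are 45 listed genes of the cyclin-CDK engine, the spindle, the spindle checkpoint, the kinetochore and cytokinesis. They were matched by symbol to the Ensembl identifiers of the RS4;11 count data, and all 45 were found among 63677 identifiers. RS4;11 is an established cell line of the B-precursor type of acute lymphoblastic leukemia. In the study, parallel cultures of it were grown under rising concentrations of venetoclax (VEN), an inhibitor of the anti-apoptotic protein BCL-2, or under the solvent DMSO. The venetoclax-insensitive lines (VENins, n = 5) stayed under continuous VEN, which was washed out before analysis, and the venetoclax-sensitive lines (VENsens, n = 5) had received the solvent. Each line gave 1 RNA-Seq library, so that 10 libraries were compared to ask how the transcriptome of insensitive lines differs from that of sensitive lines. All lines share 1 parental cell line and are separate long-term cultures of it, so p-values measure only the spread between these lines.

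Mitosis is driven by CDK1 bound to cyclin B, while polo and Aurora kinases build the spindle and the chromosomal passenger complex corrects wrong attachments at kinetochores. The spindle checkpoint holds back the anaphase-promoting complex until all chromosomes are attached, and destruction of securin and cyclin B then starts anaphase and cytokinesis. The RNAs of many of these genes peak together in G2 and M phase. In bulk RNA, fewer cells in mitosis and less RNA per mitotic cell cannot be told apart.

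The libraries held between 20631907 and 28323643 gene counts (medians: VENsens 24010870, VENins 24611645). All 45 mitotic genes passed the filter on low counts, with single-library counts between 329 and 15115. Levels are given as CPM, counts scaled to the size of each library. The labelled cell type was seen in its markers: 12 of 12 B-lineage markers were above 1 CPM in every line, with a summed level of 4224, 4164, 4083, 4157 and 4145 CPM in VENsens lines 1 to 5 and 4035, 4112, 4097, 3988 and 4488 CPM in VENins lines 1 to 5. IGLL1, a surrogate light chain gene, was the most abundant of them. Their log2 fold changes ran from −0.36 to 0.24. At an unadjusted p under 0.05, 3 of 12 were higher and 3 lower (all tested genes: 7.79% higher, 8.38% lower). After adjustment 1 of 12 was lower, while 0.197% of all tested genes passed in either direction. Some B-lineage markers thus differed between the groups as well. Of markers of other cell types, 0 of 4 T cell, 1 of 5 myeloid (CSF1R, 6.15 to 11.5 CPM), 1 of 4 fibroblast (COL1A1, 1.93 to 3.34 CPM) and 0 of 3 epithelial genes were above 1 CPM in every line. DCN, EPCAM and KRT18 had no count in any line.

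Promoter sequences were looked at because most mitotic genes were low in the same line, with 44 of 45 below their mean in VENsens line 1. Whether any promoter element relates to that low level was not tested. Genes of this class are known to carry a cell cycle genes homology region (CHR), a short element bound by the MuvB core of the DREAM complex, near the transcription start, and CCAAT boxes bound by NF-Y upstream of it. RefSeq promoter windows (GRCh38.p14), from 250 bases before to 50 bases after the start, were found for 38 of the 45 genes and none for AURKA, TPX2, BUB3, TTK, UBE2C, BIRC5 and FOXM1. The letters TTTGAA or TTCGAA, searched on both strands, were in the window of 29 of 38 mitotic genes (76.3%), against 19.5% of 27305 genes with a window. CCAAT on either strand was in 32 of 38 (84.2%) against 39.7%, and both kinds of letters were in 25 of 38 (65.8%) against 9.02%. A gene with several windows was counted by any of them. Counted by window, 33 of 49 (67.3%) held the CHR letters, against 16.4% of all 35116 windows. TTCGAA reads the same on both strands, and overlapping matches were allowed.

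Of the DNA replication genes used for comparison, 2 of 39 with a window (5.13%) held the CHR letters and 24 of 39 (61.5%) held CCAAT. Of other G2/M genes, 23 of 29 (79.3%) held the CHR letters, as did 10 of 19 cohesin and condensin genes (52.6%), 5 of 11 DREAM, MuvB and NF-Y genes (45.5%), 10 of 24 other centromere and kinetochore genes (41.7%), 5 of 17 of the anaphase-promoting complex (29.4%), 2 of 12 G1/S regulators (16.7%) and 1 of 7 CDK inhibitors and inhibitory kinases (14.3%). The 9 mitotic genes with a window but without the CHR letters were CCNA2, CCNB1, PTTG1, AURKB, NEK2, KIF20A, KIF2C, SPC24 and CENPE, and CENPE and KIF2C lacked CCAAT as well. A match is a description and not a bound site, and a missing match says only that these letters are not in the window. Only TTTGAA and TTCGAA were searched, so a gene without them is not shown to lack a CHR.

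The 140 bases before the start are shown for 5 genes, with TTTGAA and CCAAT letters (or the reverse complement of the latter, ATTGG) in capitals. CENPA has the largest fold change of the mitotic genes and CDC20 combines the elements within a short stretch. CCNB2 and CCNB1 are the B-type cyclins, with and without the letters searched for the CHR, and INCENP has the lowest fold change of all. All 5 lie on the plus strand of GRCh38.p14, CENPA at chr2:26785916-26786055, CDC20 at chr1:43358841-43358980, CCNB2 at chr15:59105006-59105145, CCNB1 at chr5:69167010-69167149 and INCENP at chr11:62123871-62124010.
CENPA: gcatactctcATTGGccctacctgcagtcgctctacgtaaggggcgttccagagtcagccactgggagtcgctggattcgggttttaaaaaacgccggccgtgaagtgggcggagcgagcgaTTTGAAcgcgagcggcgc
CDC20: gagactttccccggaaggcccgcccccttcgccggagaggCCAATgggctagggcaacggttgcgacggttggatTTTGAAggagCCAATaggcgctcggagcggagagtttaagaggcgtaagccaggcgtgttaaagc
CCNB2: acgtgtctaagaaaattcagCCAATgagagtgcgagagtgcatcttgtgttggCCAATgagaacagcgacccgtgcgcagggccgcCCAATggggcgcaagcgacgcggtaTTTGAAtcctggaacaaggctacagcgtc
CCNB1: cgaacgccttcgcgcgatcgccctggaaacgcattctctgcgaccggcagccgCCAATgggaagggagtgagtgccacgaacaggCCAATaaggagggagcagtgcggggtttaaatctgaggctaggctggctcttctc
INCENP: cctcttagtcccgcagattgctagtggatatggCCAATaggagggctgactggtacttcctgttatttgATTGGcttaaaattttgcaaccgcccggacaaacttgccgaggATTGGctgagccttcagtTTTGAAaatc
The TTTGAA letters start 18 bases before the transcription start in CENPA, 65 in CDC20, 29 in CCNB2 and 10 in INCENP. Of the letters searched, CCNB1 held only CCAAT, 87 and 55 bases before the start. INCENP, with the lowest fold change, and CENPA, with the largest, both hold TTTGAA and, on either strand, CCAAT letters. A relation between the letters and the fold change was not tested.

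The mitotic genes were mostly slightly higher in VENins than in VENsens lines. The log2 fold change was above 0 for 42 of 45 genes (93.3%, with SPC24, which rounds to 0.00), against 51.1% of all 16756 tested genes, and its median was 0.13, against 0.00 for all tested genes. The largest value was 0.38 and the lowest −0.07. At an unadjusted p under 0.05, 22 of 45 genes were higher (48.9%, against 7.79% of all tested genes) and 0 were lower (against 8.38%). The number higher was 9 without line pair 1 and 14 without VENsens line 1 alone. It was 15 without VENsens line 2, VENins line 1 or VENins line 3, and 25 without line pair 4 or VENins line 4. After Benjamini-Hochberg adjustment over all tested genes, 0 of 45 passed the threshold of 0.05 in edgeR's quasi-likelihood test with the line number as a block. In that test 33 of 16756 genes (0.197%) passed. In DESeq2 with the line number 2 of 45 passed, against 217 of 16756 genes (1.3%). None of the 45 genes was higher in all VENins than in all VENsens lines, which 2.36% of all tested genes were.

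Other fits called 0 to 10 of the mitotic genes. DESeq2 with the line number called CENPA and UBE2C, 2 of 45 against 1.3% of all genes. DESeq2 without it called these and PTTG1 and NEK2, 4 of 45 against 4.41%. Of the 16756 genes in these shares, 3899 with the line number and 4550 without it had no adjusted p. Such genes could not be called, so both shares are low as a background. Without the block, edgeR called CENPA alone (0.889% of all genes), and with the block, once the length and GC trends of the libraries were removed, it called CENPA alone as well (1.15%). Without a filter on low counts 10 of 45 were called, against 2.02% of 32884 genes. That share includes genes with few counts, whereas all 45 mitotic genes are among the 16756 that pass the filter. Without line pair 4, 5 of 45 were called (UBE2C, CENPA, CDC20, AURKA and HMMR), against 1.97% of all genes, and without pair 1, 2, 3 or 5 it was 0 of 45 each (0.0358 to 0.34% of all genes). Leaving out single libraries, with no block, gave 0 of 45 for 7 of the 10 libraries (0.106 to 0.267% of all genes), 7 of 45 without VENins line 4 (4.65% of all genes), 2 without VENsens line 3 (1.06%) and 1 without VENins line 5 (2.97%).

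Summed over the 45 genes, the level was 5318, 6144, 6311, 6403 and 6323 CPM in VENsens lines 1 to 5 and 6832, 6457, 6888, 6192 and 6545 CPM in VENins lines 1 to 5. VENsens line 1 stood below all other lines, VENins line 4 lay inside the range of VENsens lines 2 to 5, and the other VENins lines lay above every VENsens line. VENsens line 1 was the lowest of all 10 lines for 36 of the 45 genes (80%), which it was for 9.07% of all tested genes. In that line 44 of 45 genes were below their mean over the 10 lines, SPC24 being the exception. In VENins line 1, 40 genes were above their mean, in VENins line 3, 41, and in VENins line 4 only 16.

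**Figure D1:**
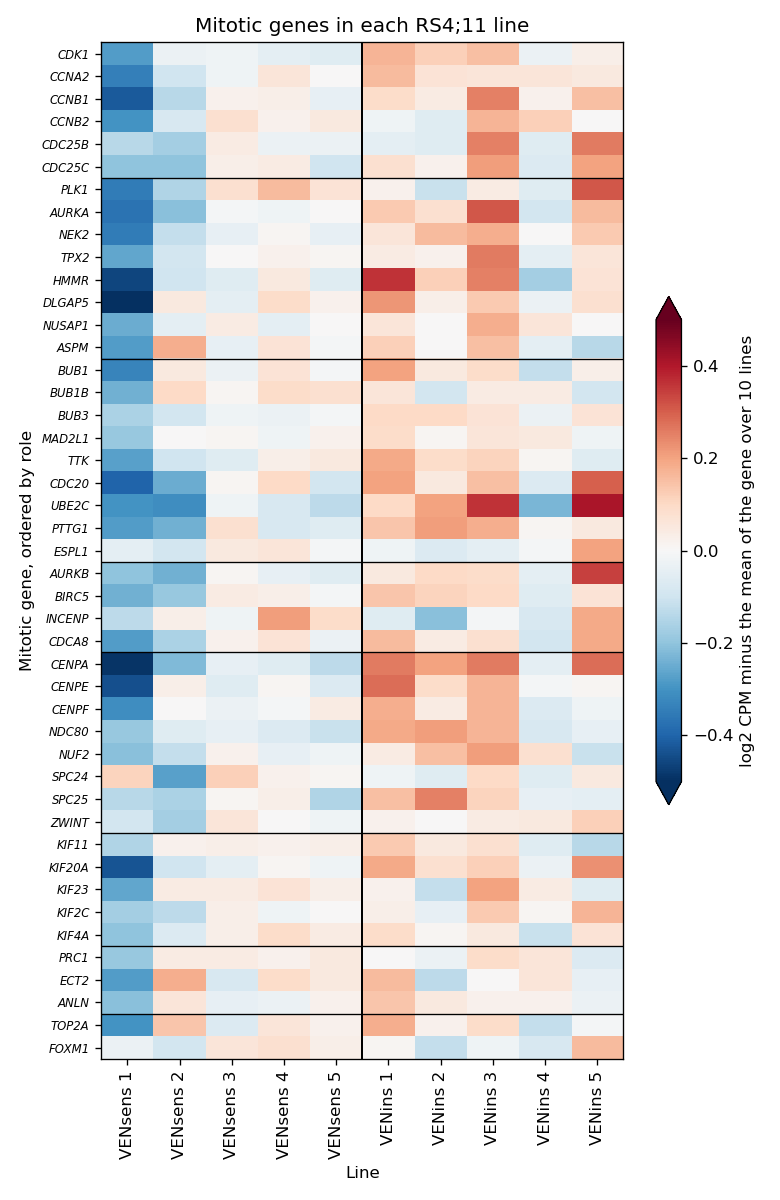
Heat map of the 45 mitotic genes (vertical, ordered by role, with lines between roles) in the 10 lines (horizontal), coloured by log2 CPM minus the mean of each gene over the 10 lines. VENsens line 1 is below the mean for 44 genes, VENins lines 1 and 3 are above it for 40 and 41, and VENins line 4 is above it for 16.

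Between lines of the same number the median difference of the mitotic genes (log2 CPM, VENins minus VENsens) was 0.37 for pair 1, 0.11 for pair 2, 0.12 for pair 3, −0.05 for pair 4 and 0.08 for pair 5. Pair 1 was thus the largest and pair 4 the only one with the opposite sign. Deviations of same-numbered lines did not correlate (r −0.10 to 0.03), so counts of pairs rest on the numbers in the labels alone. Without pair 1, 34 of 45 genes had a log2 fold change above 0 and the median was 0.08, and without VENsens line 1 alone these values were 35 and 0.09. Genes above 0 with all pairs and below 0 without pair 1 were ASPM, BUB1, KIF11, KIF23, KIF4A, PRC1, ECT2 and TOP2A, while BUB1B, INCENP and FOXM1 were below 0 with all pairs as well. Within VENsens lines the median SD of log2 CPM over the 45 genes was 0.131 (0.116 over all tested genes), and without line 1 it was 0.0705 (0.109).

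**Figure D2:**
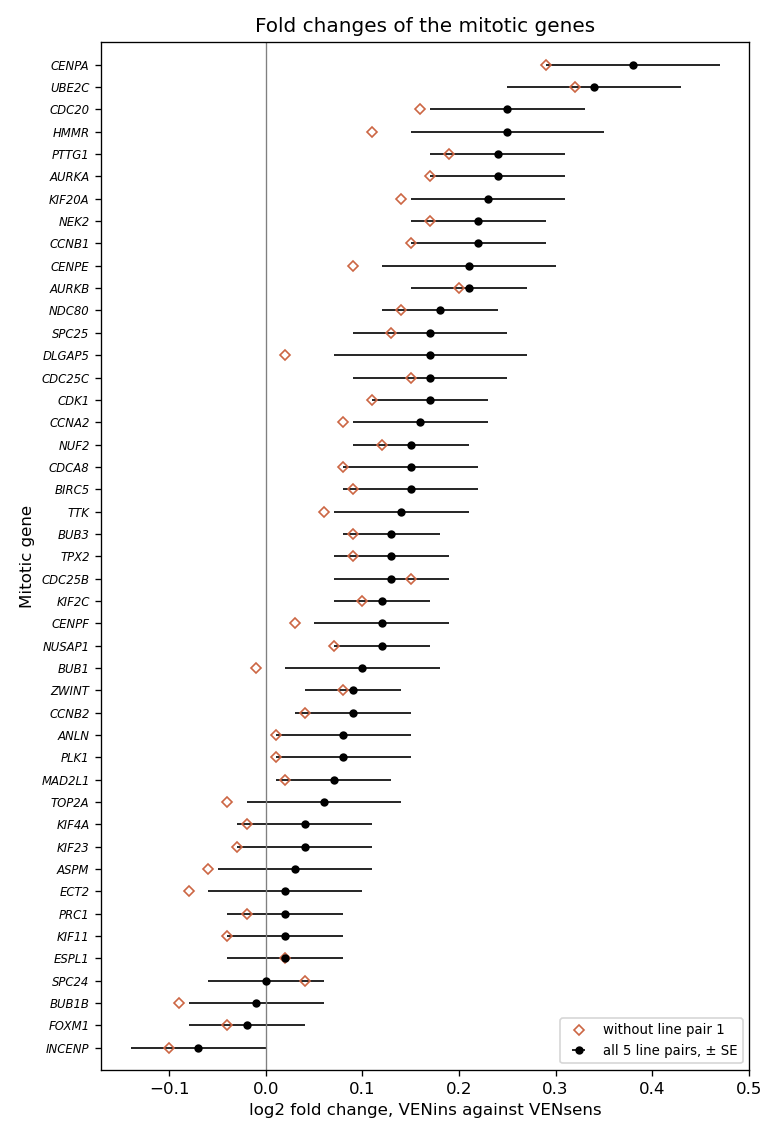
Log2 fold change (VENins against VENsens, horizontal) of each mitotic gene, with all 5 line pairs (filled circles, bars are the SE) and without line pair 1 (open diamonds). With all pairs the values run from −0.07 for INCENP to 0.38 for CENPA, and without pair 1 34 of 45 are above 0.

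The cyclin-CDK genes were higher in VENins lines for 6 of 6, with a median log2 fold change of 0.17. The CPM of CCNB1, cyclin B1, was 99.4, 121, 135, 136 and 129 in VENsens lines 1 to 5 and 142, 137, 158, 135 and 148 in VENins lines 1 to 5. VENsens line 1 was lowest, and all VENins lines but line 4 were above the highest VENsens line. CCNB1 had a log2 fold change of 0.22 ± 0.07 (SE), was higher in 4 of 5 pairs of the same number, and did not pass the test (adjusted p = 0.136). For CDK1, the kinase that cyclin B activates, CPM was 185, 220, 221, 217 and 215 in the VENsens and 252, 244, 248, 220 and 229 in the VENins lines. VENsens lines 2 to 5 were close to each other, line 1 lay well below them, and VENins line 4 overlapped with them. CDK1 differed by 0.17 ± 0.06 on the log2 scale, higher in 5 of 5 pairs (adjusted p = 0.184). CCNA2, the cyclin of S and G2 phase, had 0.16, and CCNB2, the second B-type cyclin, 0.09. Without VENsens line 1 CCNA2 was at 0.10 and CCNB2 at 0.02. The phosphatases CDC25B and CDC25C, which remove the inhibitory phosphates from CDK1, had 0.13 and 0.17.

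Kinases and microtubule proteins of spindle assembly were higher for 8 of 8, with a median of 0.15. Without pair 1, 7 of 8 were higher and the median was 0.08. AURKA, the Aurora kinase of centrosomes and spindle poles, had 54.9, 61.2, 70.4, 69.8 and 71 CPM in VENsens lines 1 to 5 and 77.4, 74.7, 88, 66.6 and 79 CPM in VENins lines 1 to 5. VENsens lines 1 and 2 were low, and VENins line 4 was the only VENins line within the VENsens range. Its log2 fold change was 0.24 ± 0.07, higher in 4 of 5 pairs (adjusted p = 0.139). NEK2, a kinase that separates the centrosomes, had 31.5, 37, 39, 40.2 and 38.9 CPM in the VENsens and 41.7, 44.9, 45.6, 40.2 and 44 CPM in the VENins lines. Again VENsens line 1 was lowest, and VENins line 4 was level with VENsens line 4. NEK2 differed by 0.22 ± 0.07, higher in 4 of 5 pairs (adjusted p = 0.143).

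Among the other spindle genes, HMMR, a spindle pole protein, had a log2 fold change of 0.25 and DLGAP5, which stabilises kinetochore fibres, 0.17. Without pair 1 these values were 0.11 and 0.02, and VENsens line 1 deviated from the mean of these genes by −0.46 and −0.53. TPX2, which targets AURKA to microtubules, had 0.13, the microtubule bundling protein NUSAP1 0.12, the polo kinase PLK1 0.08 and the spindle pole protein ASPM 0.03. PLK1 and ASPM were at 0.01 and −0.06 once pair 1 was left out.

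Of the spindle checkpoint and anaphase genes 8 of 9 were higher, with a median of 0.13. Without pair 1, 7 of 9 were higher and the median was 0.06. UBE2C, the ubiquitin-conjugating enzyme of the anaphase-promoting complex, had 32.6, 32.3, 39.6, 37.9 and 36.7 CPM in VENsens lines 1 to 5 and 43, 46.1, 51.3, 34.1 and 53.1 CPM in VENins lines 1 to 5. VENins line 4 lay among the VENsens lines and the other 4 VENins lines above all of them. UBE2C had a log2 fold change of 0.34 ± 0.09, was higher in 4 of 5 pairs and missed the threshold (adjusted p = 0.0974). It was 0.32 without pair 1, 0.29 without pair 2 (adjusted p = 0.54) and 0.45 without pair 4, where it passed (adjusted p = 0.00195). PTTG1, securin, which holds separase inactive, had 59.6, 61.5, 76.6, 68.6 and 69.5 CPM in the VENsens and 80, 84.1, 82.4, 73.2 and 74.9 CPM in the VENins lines. VENsens line 3 overlapped with VENins lines 4 and 5, and VENsens lines 1 and 2 were lowest. PTTG1 differed by 0.24 ± 0.07, higher in 5 of 5 pairs (adjusted p = 0.123).

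CDC20, the activator of the anaphase-promoting complex that the checkpoint holds back, had a log2 fold change of 0.25. The checkpoint genes themselves were closer to 0, with 0.14 for the kinase TTK, 0.13 for BUB3, 0.10 for the kinase BUB1, 0.07 for MAD2L1 and −0.01 for BUB1B. ESPL1, separase, which cleaves cohesin, had 0.02.

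Of the chromosomal passenger complex 3 of 4 genes were higher, with a median of 0.15, which was 0.08 without pair 1. AURKB, its kinase, had 107, 104, 124, 119 and 118 CPM in VENsens lines 1 to 5 and 127, 131, 130, 119 and 156 CPM in VENins lines 1 to 5. VENsens lines 1 and 2 were low, VENins line 5 was high, and VENins line 4 overlapped with the VENsens lines. AURKB had a log2 fold change of 0.21 ± 0.06, higher in 4 of 5 pairs (adjusted p = 0.14). BIRC5, survivin, which brings the complex to centromeres, had 60.4, 62.4, 73, 72.9 and 70.5 CPM in the VENsens and 78.7, 77, 76.4, 68.4 and 75 CPM in the VENins lines. Only VENins line 4 was within the VENsens range. BIRC5 differed by 0.15 ± 0.07, higher in 4 of 5 pairs (adjusted p = 0.303). INCENP, the scaffold of the complex, had 83.1, 92.3, 89.5, 105 and 96.5 CPM in the VENsens and 87.1, 78.2, 89.9, 86.1 and 103 CPM in the VENins lines. The groups overlapped throughout, with the lowest value in VENins line 2. Its log2 fold change was −0.07 ± 0.07, higher in 3 of 5 pairs (adjusted p = 0.649). CDCA8, borealin, had 0.15.

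Centromere and kinetochore genes had a median of 0.16 and were above 0 for 8 of 8, with SPC24 rounding to 0.00 and higher in only 2 of 5 pairs. CENPA, the histone variant that marks centromeres, had 25.6, 31, 35.1, 34.7 and 32.9 CPM in VENsens lines 1 to 5 and 43.1, 41.5, 43.3, 34.8 and 43.9 CPM in VENins lines 1 to 5. The 4 VENins lines other than line 4 were above every VENsens line, VENins line 4 was level with VENsens line 4, and VENsens line 1 was lowest. CENPA had a log2 fold change of 0.38 ± 0.09, was higher in 5 of 5 pairs and missed the threshold (adjusted p = 0.0768). It was 0.29 without pair 1 (adjusted p = 0.114), 0.37 without pair 2 (adjusted p = 0.484) and 0.47 without pair 4 (adjusted p = 0.00432). NDC80, of the complex that binds microtubules at the kinetochore, had 65.5, 71.8, 72.6, 71.2 and 69 CPM in the VENsens and 85.3, 86.5, 84.1, 70.7 and 72.6 CPM in the VENins lines. VENins lines 1 to 3 were high, and lines 4 and 5 were within or at the edge of the VENsens range. NDC80 differed by 0.18 ± 0.06, higher in 4 of 5 pairs (adjusted p = 0.18).

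The other subunits of the NDC80 complex were NUF2 at 0.15, SPC25 at 0.17 and SPC24 at 0.00 on the log2 scale. SPC24 was the only mitotic gene above its mean in VENsens line 1 (deviation 0.11), and it was lowest in VENsens line 2 (−0.27). The kinetochore motor CENPE had a log2 fold change of 0.21, CENPF, a large outer kinetochore protein, 0.12, and ZWINT, which links the kinetochore to the checkpoint, 0.09. Without VENsens line 1 CENPE was at 0.13, CENPF at 0.06 and ZWINT at 0.08.

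Spindle motors had a median of only 0.04, and without pair 1 it was −0.02, with 2 of 5 genes above 0. KIF20A, a kinesin of the central spindle, had 63.8, 80.4, 83.6, 87 and 85 CPM in VENsens lines 1 to 5 and 98.4, 91.1, 94.1, 84.3 and 101 CPM in VENins lines 1 to 5. VENsens line 1 was far below the rest, and VENins line 4 lay within VENsens lines 2 to 5. KIF20A differed by 0.23 ± 0.08, higher in 4 of 5 pairs (adjusted p = 0.163), and 0.14 without pair 1. KIF2C, which depolymerises microtubules at kinetochores, had 92, 94.1, 105, 102 and 103 CPM in the VENsens and 105, 100, 113, 104 and 116 CPM in the VENins lines. The groups overlapped, and VENsens lines 1 and 2 were lowest. KIF2C differed by 0.12 ± 0.05, higher in 5 of 5 pairs (adjusted p = 0.295). KIF4A, a chromosome-bound motor, had 0.04, as did KIF23 of the centralspindlin complex, and KIF11, which pushes the spindle poles apart, had 0.02.

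Cytokinesis genes were close to 0. ANLN, anillin, a scaffold of the contractile ring, had 31.6, 38.2, 35.6, 35.9 and 37.1 CPM in VENsens lines 1 to 5 and 40.3, 38, 37.1, 37.2 and 36 CPM in VENins lines 1 to 5. PRC1, which bundles microtubules in the central spindle, had 139, 163, 163, 160 and 164 CPM in the VENsens and 159, 156, 169, 165 and 151 CPM in the VENins lines. For both genes VENsens line 1 was lowest and the remaining 9 lines overlapped. The log2 fold change was 0.08 ± 0.07 for ANLN (higher in 3 of 5 pairs, adjusted p = 0.599) and 0.02 ± 0.06 for PRC1 (3 of 5 pairs, adjusted p = 0.904). ECT2, which activates RhoA at the cleavage site, had 0.02.

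TOP2A, the topoisomerase that untangles sister chromatids, had 454, 618, 532, 585 and 567 CPM in VENsens lines 1 to 5 and 637, 568, 598, 516 and 555 CPM in VENins lines 1 to 5. VENsens lines 1 and 2 stood at opposite ends of the VENsens range, and the groups overlapped. FOXM1, a transcription factor of G2/M genes, had 117, 112, 125, 127 and 122 CPM in the VENsens and 120, 110, 117, 113 and 134 CPM in the VENins lines. VENsens line 1 was not low in FOXM1 (deviation −0.03), unlike in most mitotic genes. The log2 fold change was 0.06 ± 0.08 for TOP2A (higher in 2 of 5 pairs, adjusted p = 0.74) and −0.02 ± 0.06 for FOXM1 (2 of 5 pairs, adjusted p = 0.894).

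Per kilobase of exon, averaged over the 10 lines, the level was highest for NUSAP1 at 146, TOP2A at 87.4 and ZWINT at 75.1 CPM per kb. It was lowest for ECT2 at 8.34, ANLN at 6.1 and CDC25C at 5.5 CPM per kb, with a median of 24.3 over the 45 genes. The exonic length, taken as the union of annotated exons, ran from 1286 bases in UBE2C to 11690 in CENPF.

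Transcript length moved with the difference among the mitotic genes. Across the 45 genes Spearman's rho between exonic length and the log2 fold change was −0.58, with shorter transcripts more often higher in VENins lines, and across all 16312 tested genes with a length it was −0.27. Genes are not independent replicates, and the points share the same 10 libraries. VENsens line 2 showed this most: its deviation from the 10-line mean had a rho with length of 0.74 over the mitotic genes and 0.27 over all genes. In that line UBE2C was at −0.31, SPC24 at −0.27, CDC20 at −0.25, PTTG1 and AURKB at −0.24 and CENPA at −0.22, while ASPM and ECT2 were at 0.18 and TOP2A at 0.14. In VENsens line 1, where short and long transcripts were both low, rho was 0.12. With the length and GC trends removed, the median log2 fold change of the mitotic genes was 0.13, 42 of 45 were above 0, and the rho with length was −0.37. Across all 16312 genes the rho was then −0.03. The part of RNA quality in this relation was not tested.

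**Figure D3:**
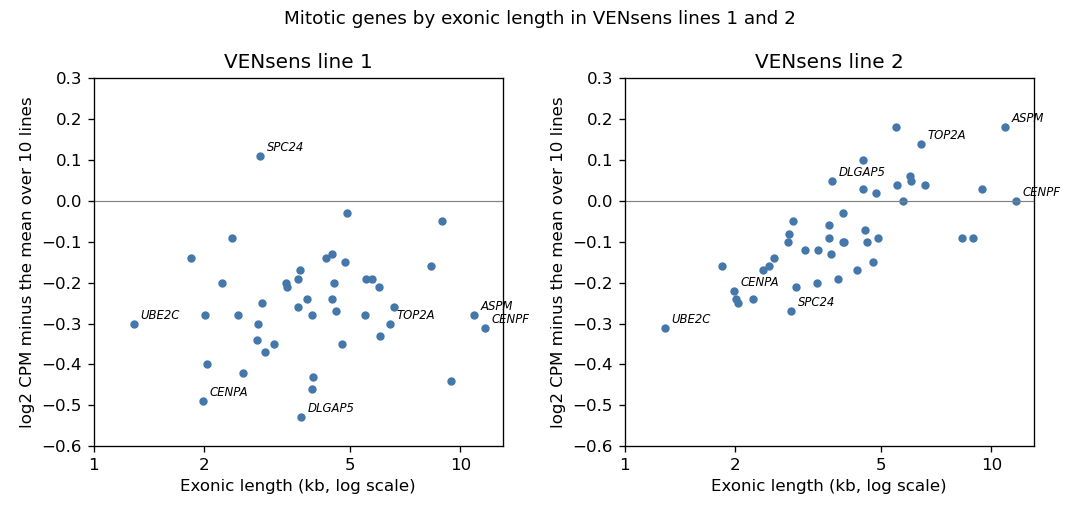
Exonic length (kb, log scale, horizontal) against log2 CPM minus the mean over 10 lines (vertical) for the 45 mitotic genes in VENsens lines 1 and 2, 1 point per gene. In line 2 short transcripts such as UBE2C (−0.31) are low and long ones such as ASPM (0.18) are high, while in line 1 nearly all are low whatever their length.

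Some mitotic genes have near-identical copies or overlapping genes. From which of these the reads came was not tested, so the counts of such mitotic genes are uncertain to that extent. The intronless copy CDC20P1 held 8781 counts, 53.2% of those of CDC20, KIF4B held 45.5% of KIF4A, PTTG3P 38.5% of PTTG1 and CCNB2P1 14.3% of CCNB2. The log2 fold changes of the copies were 0.29 for CDC20P1, −0.03 for KIF4B, 0.33 for PTTG3P and 0.17 for CCNB2P1. With these and the other listed copies added, CDC20 was at 0.26, KIF4A at 0.02, PTTG1 at 0.26 and CCNB2 at 0.10. The library kit does not mark strand, so that reads on exons shared with opposite-strand genes, such as CCNA2 with EXOSC9, FOXM1 with ITFG2 and KIF20A with BRD8 and CDC23, cannot be told apart by strand, and CENPA shares 138 exonic bases with SLC35F6 on the same strand.

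Some other cell cycle lists were also low in VENsens line 1. Other G2/M genes, 34 tested, were higher in VENins lines for 31, with a median log2 fold change of 0.12 and 15 at an unadjusted p under 0.05, all higher (all tested genes: 7.79% higher, 8.38% lower). Without pair 1, 24 of the 34 were above 0 and the median was 0.08. VENsens line 1 was the lowest line for 25 of the 34 genes, and all 34 were below their mean in it, as 44 of 45 mitotic genes were. CKS2, a CDK-binding subunit, had the smallest p of this list, with 98.9, 112, 114, 113 and 111 CPM in VENsens lines 1 to 5 and 132, 142, 139, 116 and 135 CPM in VENins lines 1 to 5. All VENins lines were above all VENsens lines in CKS2, at a log2 fold change of 0.28 ± 0.06, higher in 5 of 5 pairs (adjusted p = 0.0666). PIMREG, a regulator of the metaphase to anaphase transition, had 0.36 ± 0.10 (adjusted p = 0.0991).

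Of 31 other centromere and kinetochore genes 24 were higher, with a median of 0.09, 6 had all VENins above all VENsens lines (against 0 of 45 mitotic genes and 2.36% of all genes), and 10 were higher and 1 lower at an unadjusted p under 0.05 (against 7.79% and 8.38% of all genes). Below their mean were 27 of the 31 in VENsens line 1, where their summed level was lowest at 1756 CPM, and 26 in VENsens line 2. CENPX and SPDL1, with log2 fold changes of 0.28 and 0.22, had the smallest p (adjusted p = 0.0967 and 0.111). The anaphase-promoting complex, on which CDC20 and UBE2C act, was higher for 13 of 17 with a median of 0.07, and 3 were higher and 1 lower at an unadjusted p under 0.05 (7.79% and 8.38% of all genes). ANAPC7 and ANAPC16, at 0.19 and 0.13, had the smallest p (adjusted p = 0.18 and 0.225). Cohesin and condensin genes were higher for 10 of 23, with a median of −0.03, their summed level was lowest in VENsens line 1 (3968 CPM) and next in VENins line 5 (3994 CPM), and PDS5B and MAU2, a regulator and a loader of cohesin, were at −0.24 and −0.18 (adjusted p = 0.15 for each).

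Lists of other cell cycle phases did not show the low VENsens line 1. DNA replication genes had a median of 0.01, 24 of 45 were higher, and their summed level was 8352, 7313, 8209, 8181 and 8255 CPM in VENsens lines 1 to 5 and 7776, 7701, 8117, 8202 and 8226 CPM in VENins lines 1 to 5. VENsens line 1, lowest in mitotic genes, was highest here, and VENsens line 2 was lowest. GMNN, geminin, an inhibitor of origin licensing, was at 0.23 and ORC1, of the origin recognition complex, at −0.17 (adjusted p = 0.115 and 0.19). G1/S regulators had a median of 0.02 with 9 of 15 higher, and TFDP2, a partner of E2F factors, and CDK6, a G1 kinase, were at −0.30 and −0.16 (adjusted p = 0.126 and 0.223).

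CDK inhibitors and inhibitory kinases were higher for 5 of 8, with a median of 0.06. CDKN3, a phosphatase that acts on CDKs, was at 0.35 and CDKN2D, an inhibitor of CDK4 and CDK6, at 0.21 (adjusted p = 0.0843 and 0.182). The genes of DREAM, MuvB and NF-Y, complexes that bind CHR or CCAAT elements, were higher for 7 of 13, with a median of 0.03. MYBL2, the activator that joins MuvB, was at 0.16 and NFYB at 0.11 (adjusted p = 0.2 and 0.335). None of the genes in these 8 lists passed the adjusted threshold in edgeR's test.

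**Figure D4:**
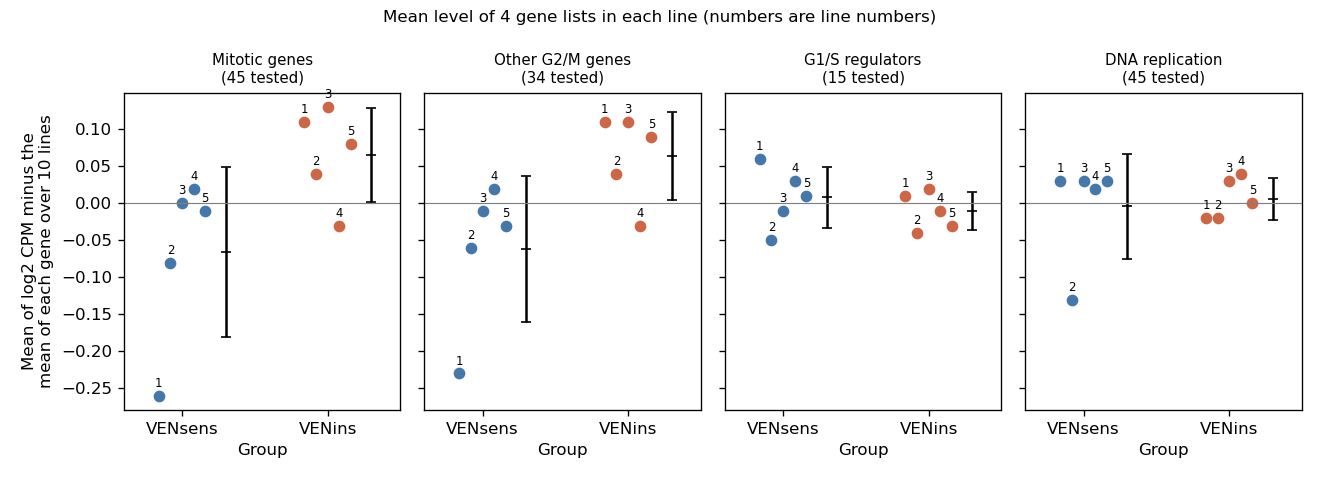
Mean of log2 CPM minus the mean of each gene over the 10 lines (vertical), for 4 gene lists in VENsens and VENins lines, 1 numbered point per line, with the mean and SD of the 5 lines beside them. VENsens line 1 is at −0.26 for the mitotic genes and −0.23 for other G2/M genes but at 0.06 for G1/S regulators and 0.03 for DNA replication.

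These results rest on 5 lines per group from 1 parental cell line, and 0 of 45 mitotic genes passed the adjusted threshold, so the tendency to higher values is described by counts and medians alone. It depended in size on VENsens line 1, and VENins line 4 did not share it. The genes of a list can move together and are not independent. Cell cycle phase, growth rate, protein and activity were not measured in the data used here, and the state of the cultures at harvest was not tested. Counts were summed per gene, so that isoforms were not analysed here. Promoter letters were read from a reference and not from these cells.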

How the data were processed

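The authors deposited raw read counts per Ensembl gene for 10 RS4;11 libraries, with 5 lines per group; the submitters' processing notes name bcl2fastq 2.20.0.422, Bowtie2 2.3.5.1, SAMtools 1.9 and HTSeq 0.9.1 with hg19. TruSeq libraries were sequenced single-end. Reads not counted on a gene were left out; 52.7 to 54.2% of reads were on genes. Gene names, exonic length and GC content came from GENCODE 29, which names 52526 of the 63677 identifiers (0.907% of counts had no name). Its build differs from that of the counts, so its exon overlaps are approximate.

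Counts were filtered by filterByExpr (minimum count 10), normalized by TMM and tested with edgeR 4.0.16 (R 4.3.3) by the quasi-likelihood F test with the line number as a block, with Benjamini-Hochberg adjustment over all genes and a threshold of 0.05. The SE is the log2 fold change over the root of F. For log2 CPM the prior count was 2. The block was kept because the study's own analysis was paired. That analysis used DESeq2, run here (1.42.0) as an alternative, with other scalings, filters and left-out lines. The steps were tested on simulated data.

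The members and lists were chosen with earlier results of these data known. Full values are given for the 2 genes with the smallest p of each role and the gene with the lowest fold change; of other lists the 2 with the smallest p are named. Sequences were chosen after the values were seen. Between lines of a group the counts had a chi-square over degrees of freedom of 1.93 to 14.3, a description of separate cultures.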

Additional observations from a re-analysis of the deposited data

Results flagged for a closer look

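In groups of 5 lines, 68 sets of values were looked at for a line far from the others, by the gap to its nearest neighbour over the whole range; chance alone gives about 1 in 20 such groups, and 12 were found. VENsens line 1 was the low one in 9 of them. It had 185 CPM of CDK1 (next 215), 63.8 of KIF20A (next 80.4) and 139 of PRC1 (next 160). Its summed level was 5318 CPM over the mitotic genes (next 6144), 1003 over spindle assembly genes (next 1207), 877 over centromere and kinetochore genes (next 996), 526 over spindle motors (next 596), 208 over cytokinesis genes (next 242) and 3222 over other G2/M genes (next 3698). These sets share genes and are not independent of each other.

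VENsens line 2 was far below the others in the summed level of DNA replication genes, at 7313 CPM (next 8181). VENins line 4 was far below the other VENins lines in CENPA, at 34.8 CPM (next 41.5). VENins line 5 was far above in the summed level of CDK inhibitors and inhibitory kinases, at 1029 CPM (next 936).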

How the results depend on the processing

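The direction of the mitotic genes as a list did not depend on the processing, while the number called did. Their median log2 fold change was between 0.08 and 0.17 and 34 to 44 of 45 were above 0 in all 24 other settings. The genes called in all were 33 (0.197% of tested genes, 6 higher, 27 lower) in the edgeR fit with the line number as a block. They were 217 (1.3%) with DESeq2 and the block, and 739 (4.41%) with DESeq2 without it. They were 664 (2.02%) without a filter and 187 (1.15%, 88 higher, 99 lower) after removal of length and GC trends. At an adjusted p under 0.1 in the edgeR fit with the block, 293 of 16756 genes were called. The mitotic genes called, 0 in that fit, were 2, 4, 10, 1 and 2 in the same order. Leaving out 1 line pair, or 1 library without the block (added after seeing the data), gave 6 to 783 genes called (0.0358 to 4.65%). The mitotic genes called were 0 to 7 of 45, and both numbers were highest without VENins line 4. The cause was not tested.

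The line numbers did not pair the lines by the data: the correlation of deviations from the group means was −0.10 to 0.03 for equal numbers and −0.16 to 0.22 for others, and 0 of 5 VENsens lines correlated best with their own number. With no replicate block edgeR called 149 genes and 1 mitotic gene, CENPA.

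Of 408 values of the 17 genes given in full, 373 kept their direction and side of the threshold, 27 passed it and 8 changed sign, all close to 0. PRC1 was at −0.02 without pair 1, −0.02 without VENsens line 1 and −0.0015 without VENins line 3 (−0.02 to 0.05 over all left-out lines). TOP2A was at −0.04 without pair 1 and −0.0021 without VENsens line 1 (−0.04 to 0.12). FOXM1 was at 0.01 after removal of length and GC trends, 0.01 without pair 4 and 0.01 without VENins line 2 (−0.07 to 0.01). TTTGAA alone was in 63.3% of the promoter windows of mitotic genes, against 15.2% of all 35116 windows.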
